A study of Prunus sibirica with 6 samples.

Results

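The genes described here form a stretch of the identifier numbering of the Siberian apricot, Prunus sibirica. They are the gene models of identifier group 08 with running numbers 30398 to 32688. The table lists 2282 of them, among 3664 gene models of that group and 34055 genes in all. The stretch was chosen from the measured values themselves: it is where genes with large differences between the clones lay close together in these same libraries. Differences between the clones inside the stretch are therefore given as a description, and what chose the stretch is not a finding about it.

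Flower buds of 2 clones of Prunus sibirica were profiled by RNA sequencing, with 3 libraries per clone. Clone 595 has abortive pistils and formed the treatment group, and clone 28 has normal pistils and formed the control group. No other treatment, age, site or bud stage is given in the labels, and both groups are the same tissue, whole flower buds. Each pistil type is represented by 1 clone, so pistil type and genotype cannot be told apart.

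Summed FPKM (fragments mapped to a gene, relative to its length and to the library's mapped fragments) ranged from 624935 to 639355 per library, and 24797 to 25136 genes were above 0. The depth in reads is unknown. The design calls the libraries biological replicates without saying whether they came from separate trees, so a p-value here reflects nothing beyond the spread of these libraries, which may be technical. The buds were ground whole, and fewer cells of a type cannot be told apart from less RNA per cell.

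Siberian apricot is a wild, largely outcrossing tree, and clones selected from it carry different versions of many genes. Plant genomes hold many families of copied genes that lie side by side, and such families often differ between individuals in the number, sequence and activity of their copies. The pistil is the female organ of the flower, and a flower whose pistil aborts sets no fruit. The table pairs no identifier with a gene name or product, so the tissue was not checked against marker genes, and the running numbers are an order of identifiers, which the table does not tie to positions on a chromosome. No sequence is printed, because the table holds none.

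A smaller share of genes was expressed in the stretch than in the rest of its identifier group, in every library of both clones. The number of listed genes above 0 in the stretch was 1498, 1503 and 1506 in the libraries of clone 595 and 1502, 1485 and 1496 in those of clone 28. That is 65.1% to 66.0% of the listed genes, against 75.4% to 77.4% of the 1382 remaining genes of group 08. At a level of 1 FPKM or more the shares were 46.6% to 47.7% in the stretch and 56.4% to 58.7% in the rest of the group. The clones overlapped in both shares of the stretch.

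Of the 2282 genes, 548 (24.0%) were listed at 0 in all 6 libraries, 634 (27.8%) were above 0 but had a mean under 1 FPKM, and 1100 (48.2%) had a mean of at least 1 FPKM and were tested. In the rest of group 08 the corresponding shares were 13.8%, 28.0% and 58.2%. Over all 34055 genes they were 17.2%, 27.3% and 55.5%. The rest of the group was not uniform: 62.8% of its 1114 genes before the stretch were tested, and 38.8% of its 268 genes after it, which is a smaller share than in the stretch. Listed at 0 in all 6 libraries were 11.2% of the genes before the stretch and 24.6% of those after it, the latter close to the stretch. The lowest mean among the tested genes was 1.029 FPKM and the highest among those left out was 0.995 FPKM. Low expression was most frequent in the later part of the stretch. Of the 1143 listed genes with numbers up to 31543, 17.8% were at 0 in all libraries and 55.4% were tested. Of the 1139 genes from 31544 on, 30.3% were at 0 throughout and 41.0% were tested. In the block of 100 numbers from 31998 to 32097, 44 of 100 listed genes were at 0 in all libraries.

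The tested genes of the stretch had levels near those of the rest of the group. The median FPKM of the 1100 tested genes was 11.2, 11.4 and 11.9 in the libraries of clone 595 and 11.6, 11.8 and 11.0 in those of clone 28. The medians of the clones overlapped. In the rest of group 08 the median of the 804 tested genes lay between 12.3 and 13.6 FPKM per library. The stretch took 5.84% to 5.97% of the summed FPKM of the abortive pistil libraries and 5.92% to 5.95% of that of the normal pistil libraries. No test was attached to these comparisons, since genes are not replicates.

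The most abundant transcript of the stretch was at 1254, 1206 and 1267 FPKM in clone 595 and at 1539, 1596 and 1608 FPKM in clone 28. All 3 abortive pistil libraries were below all normal pistil libraries, a log2 change of -0.35 ± 0.09 (SE; limma, adjusted p = 0.0114). The gene next in abundance was at 1196, 1159 and 963 FPKM in clone 595 and at 1118, 933 and 920 FPKM in clone 28, and its clones overlapped. It changed by 0.16 ± 0.12 on the log2 scale (SE; limma, adjusted p = 0.302). Among the 74 genes of the stretch whose mean reached 100 FPKM, 21 were called higher and 14 lower in clone 595, and 3 of the 35 differed at least 2-fold. The called share was 47.3%, against 49.4% of genes at that level outside the stretch.

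The design sets the buds of clone 595, with abortive pistils, against those of clone 28, with normal ones. Each log2 change is clone 595 minus clone 28 in log2(FPKM + 1), a scale on which low genes change less than in FPKM, and calls were made at an adjusted p under 0.05. In the stretch 516 of 1100 tested genes (46.9%) were called, 237 higher and 279 lower in clone 595. Over all 18904 tested genes 44.0% were called, 17.6% higher and 26.4% lower, and in the rest of group 08 the share was 44.5%. After scaling by the median log ratio, which moved the median change of all tested genes from -0.07 to 0, the stretch had 274 higher and 236 lower calls, so which direction prevailed depended on the scaling. No library of one clone reached into the range of the other in 623 tested genes of the stretch (56.6%), against 54.8% of all tested genes.

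The stretch was chosen for the size of its differences, so the following shares describe it and support nothing further. Called changes of at least 2-fold, named large here, were found in 157 tested genes (14.3%), 76 higher and 81 lower in clone 595. Over all tested genes 7.24% had a large change, 3.33% higher and 3.91% lower. In the rest of group 08 there were 54 large changes among 804 tested genes (6.72%), of which 42 of 700 (6.0%) lay before the stretch and 12 of 104 (11.5%) after it. A difference of 4-fold or more was called for 26 genes of the stretch, 14 higher and 12 lower, or 2.36% against 1.58% of all tested genes. Called changes under 2-fold made 32.6% of the tested genes in the stretch and 36.7% overall. With a pseudocount of 0.1 the count of at least 4-fold changes was 65.

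**Figure D1:**
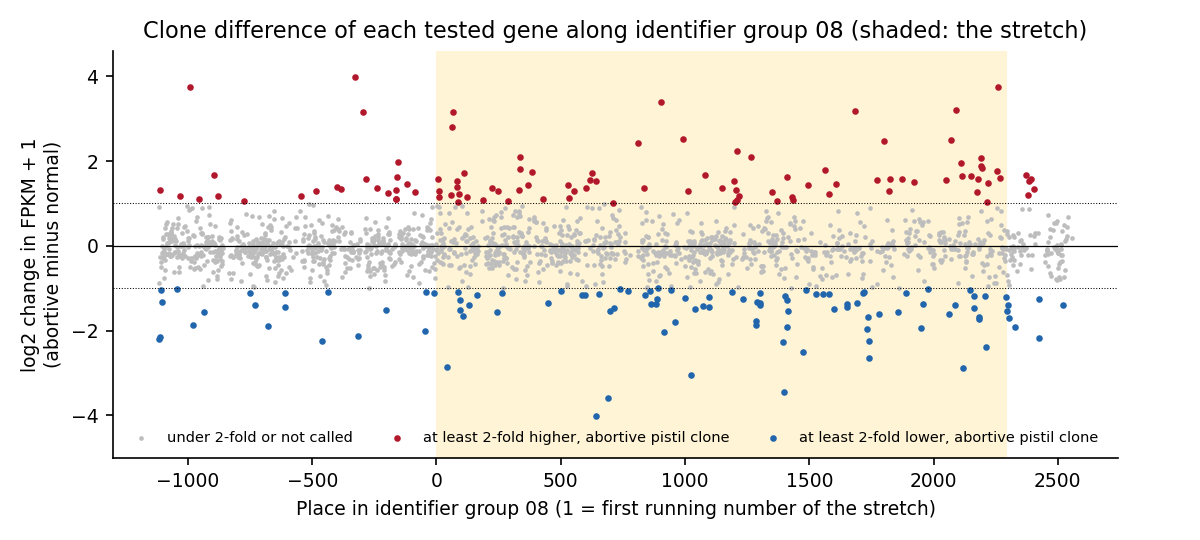
Each point is a tested gene of identifier group 08, placed by its running number counted from the start of the shaded stretch (x axis) with its log2 change in FPKM + 1, abortive minus normal pistil (y axis, dotted lines at 2-fold). Large changes in both directions, 76 higher and 81 lower, are spread over the whole stretch.

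The middle of the distribution was close to that of other genes, and the upper part was wider than in the genes before the stretch. The median absolute log2 change of the tested genes was 0.27 in the stretch and 0.24 in the rest of group 08, against 0.25 over all tested genes. The 75th percentile was 0.64 in the stretch and 0.47 in the rest of the group, and the 90th was 1.23 and 0.83. The rest was not uniform: the 104 tested genes after the stretch had 0.60 and 1.23, and the 700 before it 0.46 and 0.78. The median signed change was -0.06 in both parts of the group. The spread between libraries of a clone was similar: the median SD of log2(FPKM + 1) was 0.117 in clone 595 and 0.115 in clone 28 in the stretch, and 0.111 and 0.110 in the rest of the group (n = 3 libraries per clone). Across the 1100 tested genes, the mean Pearson's r was 0.9897 for the 6 pairs of libraries from 1 clone and 0.9162 for the 9 pairs from different clones. In the rest of group 08 these values were 0.9916 and 0.9417. The mean Spearman's rho in the stretch was 0.9891 within and 0.9159 between clones. They run across genes, and genes are no independent replicates, so no p is given.

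**Figure D2:**
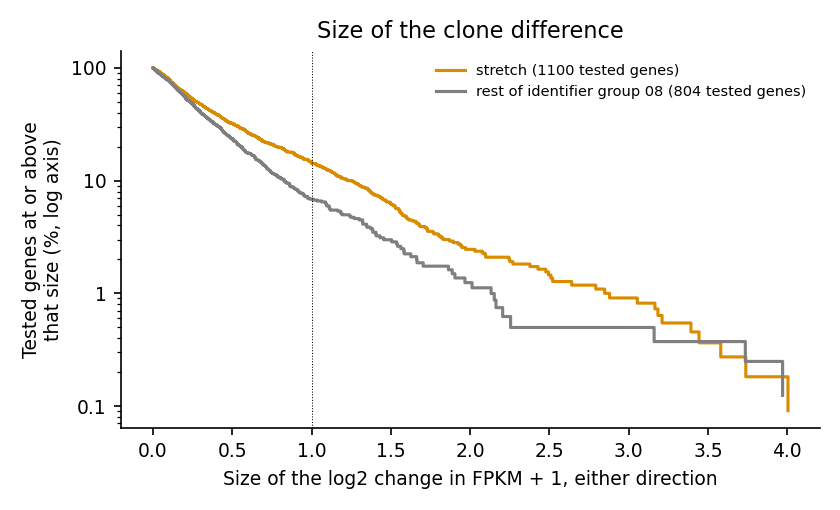
The share of tested genes (y axis, percent on a log scale) whose log2 change in FPKM + 1 is at or above the size on the x axis, in either direction, for the 1100 genes of the stretch and the 804 remaining tested genes of group 08. The curves start together, with medians of 0.27 and 0.24, and have parted by the dotted line at 2-fold, with 90th percentiles of 1.23 and 0.83.

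Large changes were more frequent among low genes, in the stretch as elsewhere, and the stretch held a larger share of them in each class of expression level. Between 1 and 5 FPKM, 25.6% of 355 genes had a large change, against 13.5% outside the stretch. Between 5 and 20 FPKM the shares were 12.0% of 358 genes and 6.07%. Between 20 and 100 FPKM they were 6.39% of 313 genes and 2.79%, and at 100 FPKM or more 4.05% of 74 genes and 1.72%. The class of 1 to 5 FPKM made up 32.3% of the tested genes of the stretch and 26.9% of those outside it. The rule for the stretch used these same differences, so the shares carry no test.

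**Figure D3:**
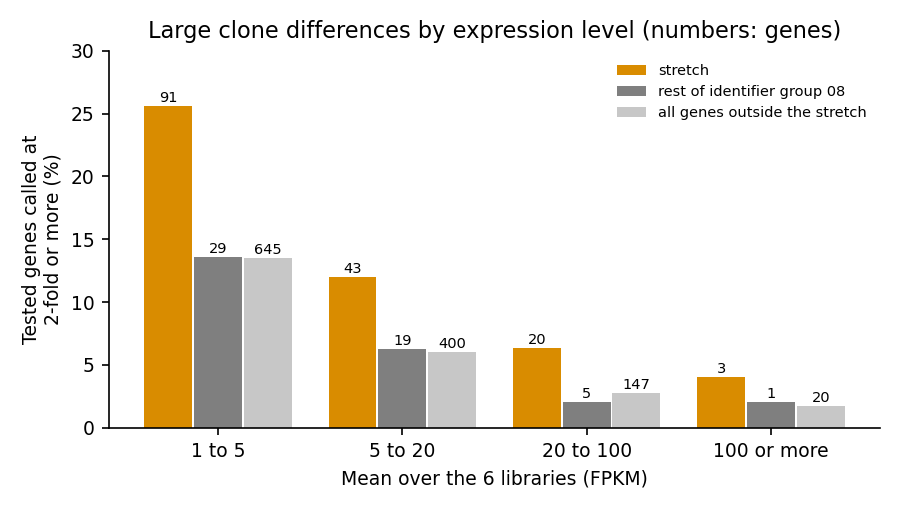
Percentage of tested genes called at 2-fold or more (y axis) in classes of mean FPKM over the 6 libraries (x axis), with the number of such genes above each bar. The bars of the stretch fall from 25.6% at 1 to 5 FPKM to 4.05% at 100 FPKM or more and are above those of the genes outside the stretch in each class.

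Large changes of both directions had similar levels. The median FPKM of the 76 higher genes was 6.79, 6.99 and 7.48 in the libraries of clone 595 and 1.63, 1.51 and 1.37 in those of clone 28. The median of the 81 lower genes was 1.43, 1.31 and 1.76 in clone 595 and 6.23, 6.99 and 6.48 in clone 28. The median log2 change was 1.51 for the higher and -1.37 for the lower genes. Most changes were graded: 61 of the higher and 67 of the lower genes stayed at 0.1 FPKM or more in each library of the lower clone. The other 15 and 14 genes fell under that level in a library of that clone. Graded changes were thus 81.5% of the 157, and they were 81.0% of the large changes over all genes. Between 2-fold and 4-fold lay 131 of the 157 changes, 17 lay between 4-fold and 8-fold, and 9 reached 8-fold.

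Called genes whose clones did not overlap and whose mean reached 5 FPKM in the higher clone were ranked by log2 change, and the 2 at either end are named. PaF106G0800032655.01 was at 13.1, 11.0 and 13.0 FPKM in the libraries of clone 595 and was listed at 0 in all 3 libraries of clone 28. It changed by 3.74 ± 0.12 on the log2 scale (SE; limma, adjusted p = 4.15e-08). The change of this gene and of others at 0 depends on the pseudocount, and with 0.1 it was 6.96. The tested gene just before it in the numbering also was higher in clone 595, with a log2 change of 1.77, and the one just after it was lower, at -0.51.

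PaF106G0800031300.01 was expressed in both clones, at 50.6, 55.1 and 50.2 FPKM in clone 595 and at 3.97, 3.89 and 4.27 FPKM in clone 28. The lowest abortive pistil library was far above the highest normal pistil library. It changed by 3.39 ± 0.08 on the log2 scale (SE; limma, adjusted p = 6.8e-09). The tested gene next to it on one side changed by -0.69, and the gene on the other side, at -0.19, was not called.

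In the other direction, PaF106G0800031037.01 was listed at 0 in all 3 libraries of clone 595 and was at 16.0, 12.2 and 17.5 FPKM in clone 28. It changed by -4.00 ± 0.15 on the log2 scale (SE; limma, adjusted p = 8.03e-08), and -7.24 with a pseudocount of 0.1. PaF106G0800031087.01 was likewise listed at 0 in clone 595 and was at 10.1, 11.8 and 11.0 FPKM in clone 28. It changed by -3.58 ± 0.12 on the log2 scale (SE; limma, adjusted p = 4.69e-08), and -6.79 with a pseudocount of 0.1. Both lie in the block of numbers 30998 to 31097. The tested genes on either side of each changed by less than 2-fold, between -0.90 and 0.26 on the log2 scale.

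**Figure D4:**
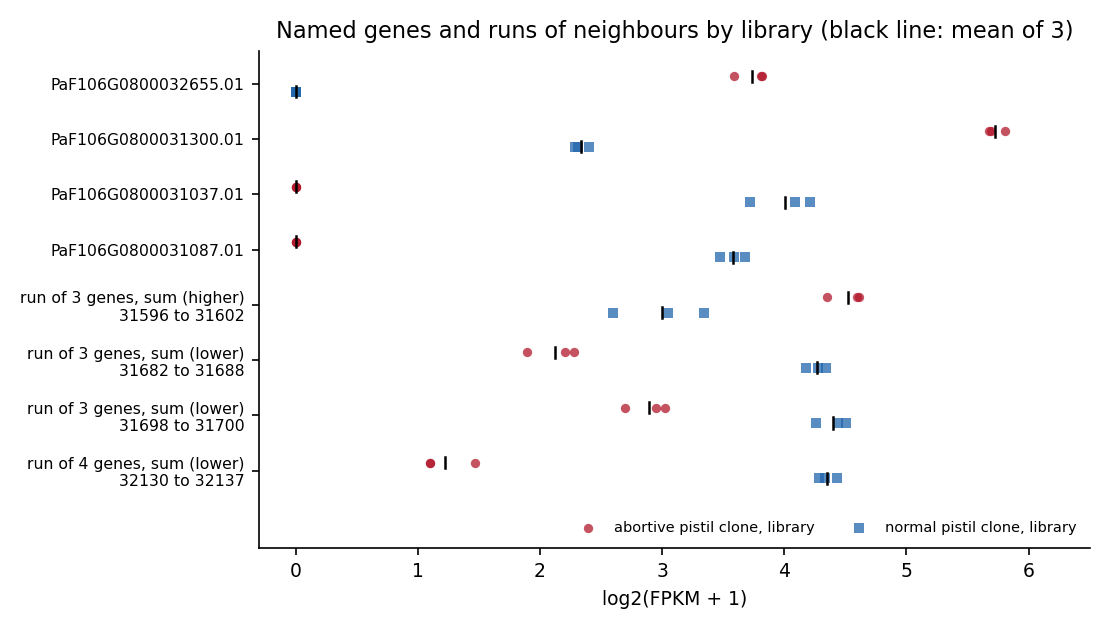
Each symbol is a library, with log2(FPKM + 1) on the x axis, for the 4 named genes and for 4 sums of FPKM. The sums are over the 4 runs of neighbouring genes in the stretch with large changes in the same direction. Black lines are means of 3 libraries. The libraries of the clones do not overlap in any line, and 3 of the named genes sit at 0 in one clone.

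Genes seen in one clone only were few and fell on both sides. In the stretch 11 genes were listed at 0 throughout one clone while each library of the other held 1 FPKM or more. They were 0.989% of the 1112 genes that reached 1 FPKM in each library of a clone. Over the whole table the share was 0.782%, and in the rest of group 08 it was 0.501%, from 4 genes. At 0 in clone 595 were 5 genes, with means of 1.81 to 15.2 FPKM in clone 28. At 0 in clone 28 were 6 genes, with means of 1.37 to 12.4 FPKM in clone 595. A listed 0 may come from a failed estimate and not only from missing reads. Of the 11 genes 6 passed the filter on low values and the other 5 were not tested.

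These 11 genes did not fall evenly over the blocks, and whether so few genes depart from a random placement was not tested. The block from 30998 to 31097 held 4 of the 11, of which 3 were at 0 in clone 595 and 1 in clone 28. Apart from the pair named by identifier, the third gene at 0 in clone 595 there was low, at 1.98, 1.75 and 1.69 FPKM in clone 28. The gene at 0 in clone 28 in that block was at 1.48, 1.70 and 2.0 FPKM in clone 595. The block from 32498 to 32597 held 1 gene of each kind, 9 numbers apart. One of them was at 2.78, 3.70 and 2.24 FPKM in clone 595, and the other at 6.29, 5.20 and 7.82 FPKM in clone 28. The remaining 5 lay alone in blocks of 100 numbers, and from 31298 to 32097 there was none. With up to 0.1 FPKM allowed in place of 0 the count rose to 23, of which 15 were near 0 in clone 28, and with at least 5 FPKM required in the other clone it was 4.

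Along the stretch, large changes occurred throughout, and they made up the largest shares of tested genes in the first block and in several blocks from 31598 on. Each of its 23 blocks of 100 numbers, the last of which holds 91, had between 2 and 14 large changes, or 3.70% to 26.9% of its tested genes. In 20 blocks the share was above that of all tested genes. Up to number 31543 there were 71 large changes in 633 tested genes (11.2%), and from 31544 on 86 in 467 tested genes (18.4%). The shares of called genes in these parts were 47.7% and 45.8%. Their tested genes had median levels of 12.3 and 10.8 FPKM, and large changes were more frequent among low genes. Whether the level accounts for the difference between the parts was not tested. The median distance from one large change to the next was 11 running numbers, and the longest stretch without one ran from 32376 to 32447. The most tested genes between neighbouring large changes were 33, between 31494 and 31546.

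**Figure D5:**
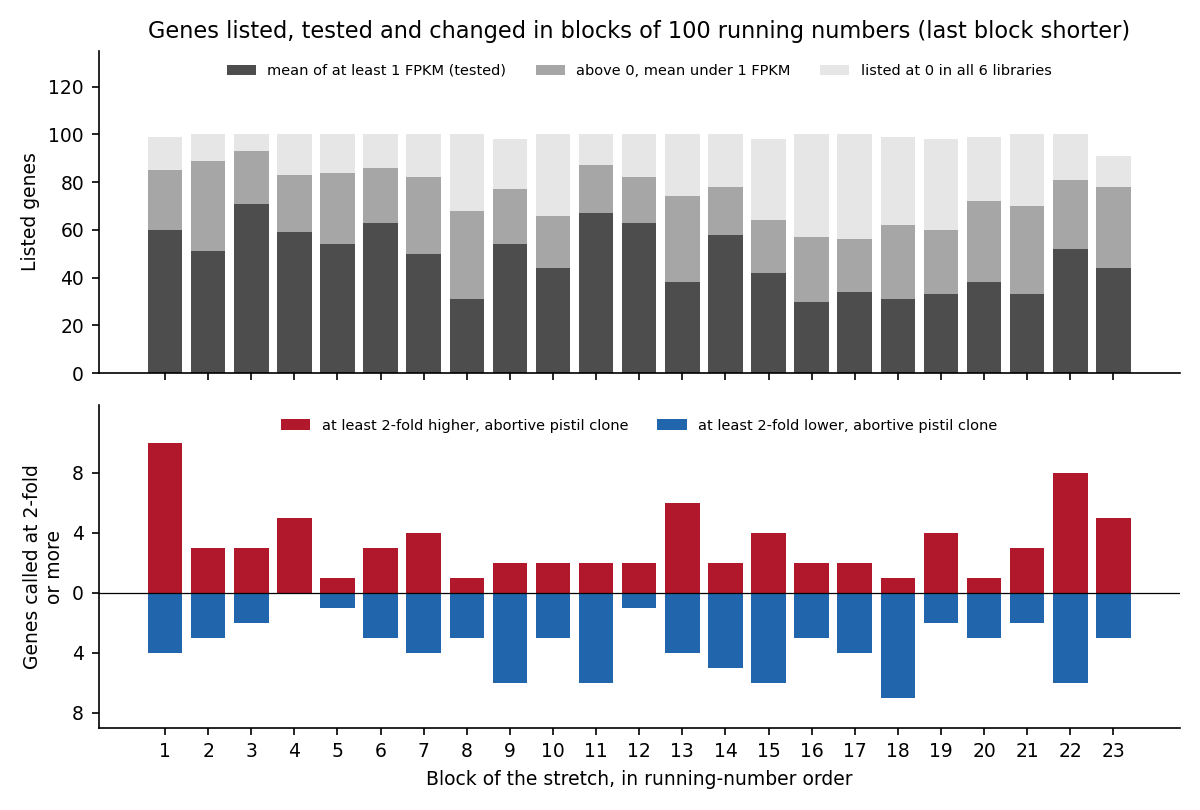
For each block of 100 running numbers (x axis), the upper panel gives the listed genes by expression and the lower panel the genes called at 2-fold or more, higher (above the line) and lower (below it) in clone 595. Tested genes per block range from 30 to 71, and the blocks with the most large changes, 14 each, are the first and the next to last.

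The first block, 30398 to 30497, held 14 large changes among 60 tested genes, 10 of them higher in clone 595. Among these, 1 gene was near absence in clone 28: it was at 6.88, 9.13 and 8.93 FPKM in clone 595 and at 0, 0.0412 and 0.0554 FPKM in clone 28. The most strongly lowered gene of the block was at 0.192, 0.120 and 0.186 FPKM in clone 595 and at 8.12, 7.09 and 7.02 FPKM in clone 28, a log2 change of -2.85. In the same block 22 tested genes were not called.

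Of the 14 large changes in the block from 32498 to 32597, 8 were higher and 6 lower. It held the most abundant transcripts with a large change, a pair with consecutive numbers. The first was at 301, 267 and 288 FPKM in clone 595 and at 916, 904 and 912 FPKM in clone 28. The second was at 393, 341 and 350 FPKM in clone 595 and at 1236, 1150 and 1219 FPKM in clone 28. Both fell in clone 595, with log2 changes of -1.67 and -1.73 and standard errors of 0.08 and 0.09 (limma, adjusted p = 2.87e-07 and 5.01e-07). Of the 8 higher genes of the block, the most abundant in clone 595 were at 28.1, 29.8 and 32.2 against 5.50, 8.62 and 5.32 FPKM and at 23.0, 26.3 and 28.3 against 7.90, 6.93 and 8.06 FPKM.

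The block from 31598 to 31697 held 10 large changes among only 38 tested genes (26.3%), whose median level in the higher clone was 4.68 FPKM. The block from 31798 to 31897 held 10 among 42 tested genes (23.8%), all of them graded, whose median level in the higher clone was 15.5 FPKM. Its most abundant gene with a large change was at 83.9, 113 and 113 FPKM in clone 595 and at 35.1, 50.9 and 51.9 FPKM in clone 28. The fewest large changes were in the block from 30798 to 30897, with 2 among 54 tested genes, and in that from 31498 to 31597, with 3 among 63.

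Genes with large changes lay both alone and side by side. Of the 157, 93 (59.2%) had no large change in the tested gene before or after them, against 76.2% of the 42 before the stretch and 66.7% of the 12 after it. The stretch was chosen where large changes lay close together, so this comparison is only a description. The share alone also depends on how dense large changes are: 14.3% of tested genes in the stretch, 6.0% before it and 11.5% after it. Among 1099 pairs of neighbouring tested genes in the stretch, 28 had large changes in the same direction, 14 higher and 14 lower. In 7 pairs the large changes went in opposite directions. Before the stretch these counts were 6 and 1 among 699 pairs, and after it 2 and 0 among 103. There were 4 runs of 3 or more neighbours with large changes in the same direction, and all 4 lay from 31596 on.

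The longest run within the stretch held 4 tested genes from 32130 to 32137, all lower in clone 595. The first was at 1.59, 1.03 and 0.984 FPKM in clone 595 and at 8.20, 8.35 and 6.33 FPKM in clone 28. The third was listed at 0 in clone 595 and was at 5.12, 6.35 and 4.38 FPKM in clone 28. The log2 changes ran from -2.64 to -1.69. Summed over the 4 genes, the level was 1.35 ± 0.364 FPKM (SD, n = 3) in clone 595 and 19.4 ± 1.08 FPKM (SD, n = 3) in clone 28. Another 4 listed genes in this range were not tested.

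A run of 3 genes from 31698 to 31700 was also lower, with a sum of 6.44 ± 0.850 FPKM (SD, n = 3) in clone 595 and 20.2 ± 1.86 FPKM (SD, n = 3) in clone 28. A run of 3 from 31682 to 31688 had 3.39 ± 0.595 and 18.2 ± 1.12 FPKM (SD, n = 3 each) in the same order. The only run of higher genes in the stretch, 3 from 31596 to 31602, had 22.0 ± 2.23 FPKM in clone 595 and 7.16 ± 2.06 FPKM in clone 28 (SD, n = 3 each). No gene of these runs had a mean above 11.1 FPKM in either clone. With a minimum mean of 5 FPKM there were 0 runs, and with a pseudocount of 0.1 there were 7. Without the third normal pistil library there were 6, so the number of runs depends on single libraries.

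In the 7 pairs that changed in opposite directions, 2 of which share a gene, 1 gene was higher in one clone and its neighbour in the other. In 6 of the pairs the summed level of both genes differed by less than 2-fold between the clones. The ratio of such a sum always lies between the opposite ratios of its 2 genes. A small difference is therefore favoured by how the pairs were picked and is no result about them. In a pair with consecutive numbers in the block from 31898 to 31997, the sum was 15.5 ± 1.01 FPKM (SD, n = 3) in clone 595 and 21.2 ± 0.634 FPKM (SD, n = 3) in clone 28, while the genes changed by 1.23 and -1.14 on the log2 scale. In the block from 31798 to 31897 a gene at 19.0 FPKM in clone 595 and 5.46 FPKM in clone 28 lay between 2 genes with log2 changes of -1.27 and -1.92. Whether these neighbours are near-identical copies was not tested, so the split of reads between them is uncertain.

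The edges of the stretch were not equally sharp. The stretch was chosen from these same differences, so any step at its edges is only a description. The last 3 tested genes before its first number were not called, with log2 changes between -0.24 and 0.05. The first 3 inside it changed by -0.33, 0.31 and -0.07. In the 100 numbers before the stretch 4 of 63 tested genes (6.35%) had a large change, and in the first 100 inside it 14 of 60 (23.3%). Farther out, the block from 30198 to 30297 held 7 in 64 tested genes (10.9%). At the other end the last tested gene inside changed by -1.21 and the first outside by -0.08. The last block inside held 8 large changes in 44 tested genes (18.2%), and the 100 numbers after it still held 7 in 43 (16.3%). At the low end of group 08, the first 19 listed genes also held 5 large changes among 15 tested genes.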

How the data were processed

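Flower buds of 2 clones were compared, with 3 libraries each. The authors deposited 1 table of FPKM, with no further normalization recorded and no column from outside these 6 libraries. The submitters' processing notes name the tools edgeR, GATK, HISAT2, Picard and SAMtools (0.1.18) without their roles. Quantifier, genome build and annotation: not given in the sources used here. Low FPKM values shared no common steps (at most 0.562% of ratios fell in a window 0.1% wide), so depth could not be recovered and no counting interval is given.

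From the deposited FPKM, log2(FPKM + 1) of all 18904 genes whose mean reached 1 FPKM was fitted in R 4.3.3 by limma 3.58.1 with its intensity trend. Two-sided p-values were adjusted over all of them by Benjamini and Hochberg's method and called under 0.05. The procedure was tested on simulated data, in which far fewer genes were changed than were called here. That test does not measure how many of the calls here are false. Labels number the libraries 1 to 3 in both clones, but same-numbered libraries did not deviate together. With 3 libraries against 3, permuting a single gene's labels cannot give a p below 0.1, so no such test was made.

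The stretch, the groups of genes and the comparisons were chosen with earlier results of these data known. Genes are named by a rule stated beside them, and others are given by their place. The alternatives were the replicate block, other pseudocounts, filters, scalings, thresholds and block widths, and leaving out each library.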

Additional observations from a re-analysis of the deposited data

How the results depend on the processing

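No gene of the stretch that was called both as reported and under an alternative changed sign, and the 4 named genes kept direction and call in all 40 alternatives run for them. The replicate numbers were not taken to pair the libraries (correlations of deviations -0.039, -0.068 and -0.027), and the replicate block gave 482 calls in place of 516 and the same 157 large ones. A minimum mean of 5 FPKM leaves fewer genes to test: 327 calls, 66 of at least 2-fold, 10 of at least 4-fold, 63 graded, 0 runs and at most 7 large changes in a block. A pseudocount of 0.1 gave 65 changes of at least 4-fold and 7 runs, and 0.01 gave 73 and 7, since a smaller pseudocount compresses low values less. Rescaling to TPM gave 40 of at least 4-fold. Genes at 0 in one clone numbered 11, 4 with at least 5 FPKM in the other clone and 23 with up to 0.1 FPKM in place of 0. The mean correlation of libraries fell from 0.9897 to 0.9810 within and from 0.9162 to 0.8504 between clones when the pseudocount was 0.1. Leaving out a library gave 423 to 492 calls, 154 to 161 of at least 2-fold, 25 to 28 of at least 4-fold, 128 to 133 graded, 3 to 6 runs, 13 to 15 large changes in the fullest block and 13 to 14 genes at 0 in one clone. The split of large changes moved from 76 higher and 81 lower to 83 and 72 under quantile normalization and to 64 and 90 without abortive pistil replicate 3; leaving out a library gave 64 to 83 higher and 77 to 90 lower. Where no cause is named above, the cause was not tested. Depth is unknown, so no limit of detection can be given for low genes.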
